A study of Mus musculus with 8 samples.

Results

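Tenascin C (Tnc), follistatin-like 1 (Fstl1) and 8 other genes of matricellular proteins, namely Thbs1, Thbs2, Thbs4, Postn, Sparc, Spp1, Ccn1 and Ccn2, were followed in bone marrow stromal cells after blockade of the lymphotoxin β receptor (LTβR). They were picked by symbol, and all 10 were found among the 52636 genes of the count matrix. The choice was made with the difference between the groups already known: Tnc and Fstl1 stood seventh and eighth of all genes by p in that comparison, both with an edgeR adjusted p of 0.0506, and Thbs2 was known to run the other way. The differences between groups are therefore a description for these 10 genes. Where the outcome of the fit over all genes is stated for them, it repeats the values that chose them and supports nothing.

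The cells, sorted from C57BL/6 mice, were mesenchymal stem cells that carry the leptin receptor (LEPR+), perivascular stromal cells that supply niche factors to blood-forming cells. One group of mice was injected with LTβR-Ig, a soluble decoy of the receptor that captures its ligands, and the other with HEL-Ig, a control antibody against hen egg lysozyme, at 150 µg by vein each week for 3 weeks. The decoy acts in the whole animal, so ligand was captured for every cell that carries the receptor and not for LEPR+ cells alone. Each group has 4 polyA RNA libraries. The submitters' design text counts 4 pairs without saying what a pair shares, and the labels do not say whether each library is 1 mouse, so the spread between libraries may be technical. No other allele or agent is named for either group, and no age is given.

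Matricellular proteins are secreted into the extracellular matrix but do not mainly hold it together. They bind integrins, syndecans and other receptors, growth factors and proteases, and so change how cells attach, move and respond to signals. Tenascin C is low in most resting adult tissue, and in mouse marrow it is made by stromal cells and supports blood formation after injury. Osteopontin, the product of Spp1, is a matrix protein of bone that restrains the haematopoietic stem cell pool. The CCN proteins encoded by Ccn1 (also called Cyr61) and Ccn2 (also called Ctgf) are induced quickly by mechanical and serum signals.

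Total counts lay between 52378101 and 61164510 in LTβR-Ig libraries and between 56466028 and 64403177 in control libraries. Markers of the sorted population were present in both groups: 12 of 12 genes of a LEPR+ stroma list were tested, and their summed level, to which Cxcl12 gave the most, was 31141 to 39415 CPM (each count as a share of its library, scaled by TMM and multiplied by 1e+06) in LTβR-Ig and 28114 to 35601 CPM in control libraries. Of these 12 genes 7 had a negative log2 fold change (median -0.08). Kitl, the stem cell factor gene, was at 1106 to 1396 CPM in LTβR-Ig and 1682 to 1942 CPM in control libraries. Snai2 was at 292 to 400 and 416 to 578 CPM, and Pdgfra at 293 to 389 and 407 to 461 CPM. These 3 of the 12, all lower, were picked after their values were seen because their groups did not overlap. Of all tested genes 2.53% were lower without overlap (4.89% in either direction). Of 99 tested marker genes in 13 cell type lists, 0 passed the edgeR test over all genes, 3 passed with DESeq2 and 0 with limma-voom. Over all tested genes 0.0374% passed with edgeR, 1.25% with DESeq2 and 0.0873% with limma-voom. In edgeR, 12 of the 99 markers had an unadjusted p under 0.05, of which 6 were higher and 6 lower. Of all tested genes 3.39% were higher and 2.93% lower at this threshold, smaller shares than among the markers. The summed level of each of the 13 lists overlapped between the groups, and the list medians ran from a log2 fold change of -0.24 for B and plasma cell markers to 0.68 for endothelial markers. In bulk RNA fewer cells of a type and less RNA per cell cannot be told apart.

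The 250 bases before the RefSeq start site (GRCm38.p6) are shown for Tnc, which was higher with LTβR-Ig, for Thbs2, which was lower, and for Ccn1, which was high in some LTβR-Ig libraries only. Capitals mark matches, on either strand, to TATAAA, to CATTCC, the core of the motif bound by TEAD factors, to TGANTCA, the AP-1 motif, to the CArG box bound by SRF, and to the κB motif of NF-κB. Tnc lies on chromosome 4 (minus strand, window chr4:64047016-64047265), Thbs2 on chromosome 17 (minus strand, chr17:14694263-14694512) and Ccn1 on chromosome 3 (minus strand, chr3:145649986-145650235).
Tnc: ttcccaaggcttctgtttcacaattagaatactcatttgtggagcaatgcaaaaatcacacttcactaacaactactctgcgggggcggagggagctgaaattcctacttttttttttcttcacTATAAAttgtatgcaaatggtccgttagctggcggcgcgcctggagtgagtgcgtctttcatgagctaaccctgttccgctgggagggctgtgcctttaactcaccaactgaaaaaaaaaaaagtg
Thbs2: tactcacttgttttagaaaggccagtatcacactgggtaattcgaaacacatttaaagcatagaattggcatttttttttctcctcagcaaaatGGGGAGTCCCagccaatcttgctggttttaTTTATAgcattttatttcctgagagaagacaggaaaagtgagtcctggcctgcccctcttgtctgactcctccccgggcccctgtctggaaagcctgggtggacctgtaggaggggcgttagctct
Ccn1: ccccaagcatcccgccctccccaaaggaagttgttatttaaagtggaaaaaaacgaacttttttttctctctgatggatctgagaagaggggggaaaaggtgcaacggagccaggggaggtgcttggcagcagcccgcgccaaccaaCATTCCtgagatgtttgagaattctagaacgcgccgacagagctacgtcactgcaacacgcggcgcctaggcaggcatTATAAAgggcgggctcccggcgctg

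Ccn1 held TATAAA from -25 to -20 and CATTCC from -103 to -98, counted from the start site. Tnc held TATAAA from -126 to -121. Thbs2 held TATAAA on the other strand, from -126 to -121, and a κB match from -156 to -147. Of 32851 promoter windows of the same length, 12.4% held TATAAA, 12.6% CATTCC, 6.75% TGANTCA, 1.47% a CArG box and 3.9% a κB motif. Fstl1, on chromosome 16, held none of the 5 motifs in a window of 68% GC, against a median of 52.4% over all windows. Its RefSeq start was 182 bases downstream of the GENCODE start, so most of this window lies inside the annotated gene. RefSeq windows were matched for 8 of the 10 genes. A match describes letters and not binding.

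By level the 10 genes spanned abundant transcripts and one at the limit of detection. Together they took 1.7 ± 0.13% of all counts in LTβR-Ig and 1.23 ± 0.164% in control libraries (SD, n = 4 each), and most of this came from Sparc, Fstl1 and Tnc, at 1.42 ± 0.125% and 1.03 ± 0.0951%. Divided by exon length so that genes can be compared, Sparc, the collagen-binding protein osteonectin, was highest, at 1688 ± 345 CPM per kb in LTβR-Ig and 1364 ± 248 CPM per kb in control libraries, which placed it 27th and 32nd of the 16045 tested genes. Spp1 followed at 1153 ± 357 and 753 ± 416 CPM per kb, then Fstl1 at 914 ± 9.81 and 609 ± 34.5 and Tnc at 446 ± 30.7 and 272 ± 20.6 CPM per kb (SD, n = 4 each, LTβR-Ig before control). By this measure of level Tnc was 101st of the tested genes in LTβR-Ig and 172nd in control libraries.

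Thbs1, Ccn1 and Ccn2 formed a middle tier of 55.9 to 97.5 CPM per kb in LTβR-Ig and 41.5 to 58 CPM per kb in control libraries, as group means. Thbs2 and Postn were at 6.89 and 6.71 CPM per kb in LTβR-Ig and at 11.9 and 4.95 CPM per kb in control libraries. Neighbours in this order did not always stand apart. In both groups the libraries' ranges overlapped between Sparc and Spp1, between Spp1 and Fstl1, and between Ccn1 and Ccn2. Fstl1 and Tnc did not overlap with each other in either group, and all Tnc libraries were above those of the middle tier. Thbs2 and Postn overlapped in LTβR-Ig but not in control libraries.

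**Figure D1:**
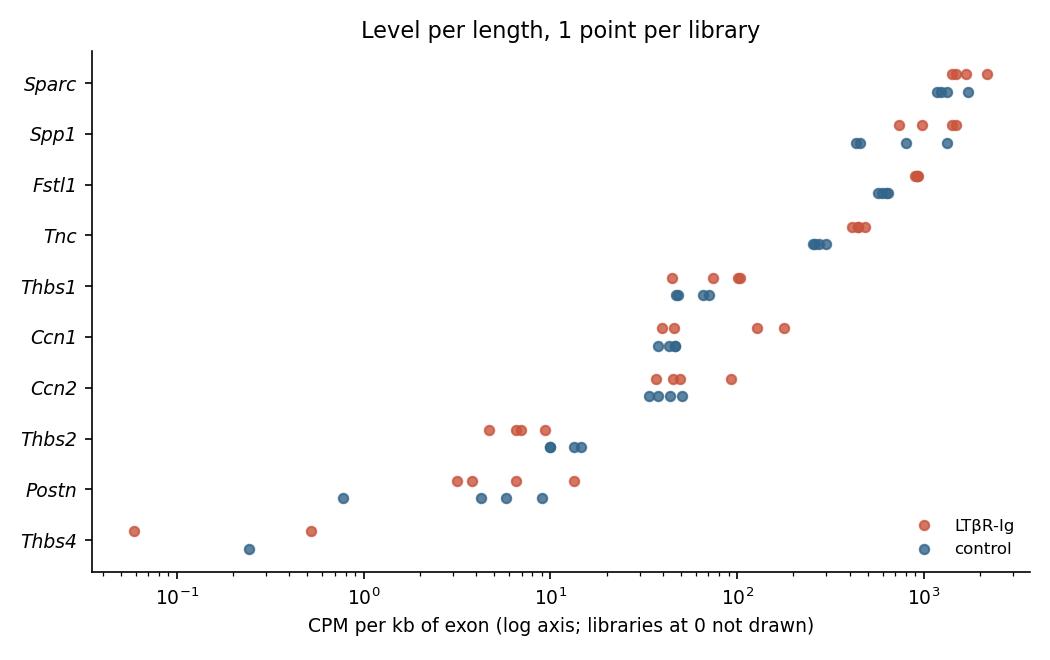
Level per length of each of the 10 genes (CPM per kb of exon, log axis), 1 point per library, with LTβR-Ig above control. Sparc, Spp1, Fstl1 and Tnc lie above the other 6 genes, and Thbs4 is drawn only in the 3 libraries with counts.

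Tnc (ENSMUSG00000028364.15, mm10 chromosome 4, 63959785 to 64047015, minus strand) encodes a large multimeric glycoprotein that binds integrins, among them those with the α9 chain. It was at 3767, 3431, 3470 and 3184 CPM in LTβR-Ig replicates 1 to 4, against 2026, 2331, 1966 and 2130 CPM in control replicates 1 to 4. Every LTβR-Ig library was above every control library, and the lowest LTβR-Ig value was well above the highest control value. The mean was 3463 ± 239 CPM in LTβR-Ig and 2113 ± 160 CPM in control libraries (SD, n = 4 each), a fold of 1.64 (log2 fold change 0.71, SE 0.09, 95% interval 0.51 to 0.92). A non-coding transcript on the opposite strand, 8030451A03Rik, shares 176 exonic bases with Tnc and had 457 counts in all LTβR-Ig and 94 in all control libraries, beside 774660 and 514602 counts of Tnc.

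Fstl1 (ENSMUSG00000022816.11, chromosome 16, 37776873 to 37836514, plus strand) encodes a secreted glycoprotein of the SPARC family that binds BMP ligands. It was at 4424, 4497, 4495 and 4540 CPM in LTβR-Ig replicates 1 to 4, against 2942, 3167, 2777 and 3076 CPM in control replicates 1 to 4. The groups did not overlap, and the 4 LTβR-Ig libraries lay within a range of 1.03-fold. The fold was 1.51 (log2 fold change 0.59, SE 0.07, 95% interval 0.42 to 0.75). The biological coefficient of variation, edgeR's estimate of the spread beyond counting error, was 0.152 for Fstl1 and 0.16 for Tnc. The median over all tested genes was 0.377, and 0.156% and 1.2% of genes had a value as low. EdgeR draws this estimate towards that of genes of similar level. The observed coefficients of variation were 1.07% and 5.68% for Fstl1 and 6.9% and 7.58% for Tnc (LTβR-Ig before control). A low spread also lowers p, by which both genes already stood high when they were chosen.

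The ratio of Tnc to Fstl1 per length was between 0.443 and 0.538 in LTβR-Ig and between 0.435 and 0.465 in control libraries. In LTβR-Ig the libraries ran in opposite orders: Tnc was highest in replicate 1 and lowest in replicate 4, and Fstl1 the reverse. In control libraries both genes were lowest in replicate 3 and highest in replicate 2. Leaving out any 1 library kept the log2 fold change of Tnc between 0.68 and 0.77 and that of Fstl1 between 0.56 and 0.62.

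Thrombospondins are large matrix glycoproteins. Thbs1 and Thbs2 encode the antiangiogenic pair, which bind CD36 and CD47, and the protein of Thbs1 also activates latent TGF-β. Thbs1 (chromosome 2, 118111876 to 118127133) was at 272, 449, 629 and 615 CPM in LTβR-Ig replicates 1 to 4, against 291, 287, 399 and 431 CPM in control replicates 1 to 4. LTβR-Ig replicate 1 was below every control library and the other LTβR-Ig libraries were above every control library. The log2 fold change was 0.48 (SE 0.27, 95% interval -0.12 to 1.08).

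Thbs2 (chromosome 17, 14665500 to 14694235) ran the other way. It was at 45.5, 33, 49 and 65.5 CPM in LTβR-Ig replicates 1 to 4, against 93.3, 101, 70.2 and 69.3 CPM in control replicates 1 to 4. The groups did not overlap, although LTβR-Ig replicate 4 came close to control replicates 3 and 4. The log2 fold change was -0.79 (SE 0.22, 95% interval -1.3 to -0.29), a fold of 0.578. Per length, Thbs1 exceeded Thbs2 by 6.88 to 15.7 times in LTβR-Ig and by 3.27 to 7.17 times in control libraries, and these ranges overlap.

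Thbs4, whose protein is best known from tendon and muscle, was hardly detected and did not pass the filter on low counts. It had 109 counts in all LTβR-Ig and 47 in all control libraries, at 1.71 CPM in LTβR-Ig replicate 3, 0.194 CPM in LTβR-Ig replicate 1 and 0.802 CPM in control replicate 4. The other 5 libraries had 0 counts, which allows a level of up to 0.0458 to 0.0584 CPM by counting error (3 counts per library).

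**Figure D2:**
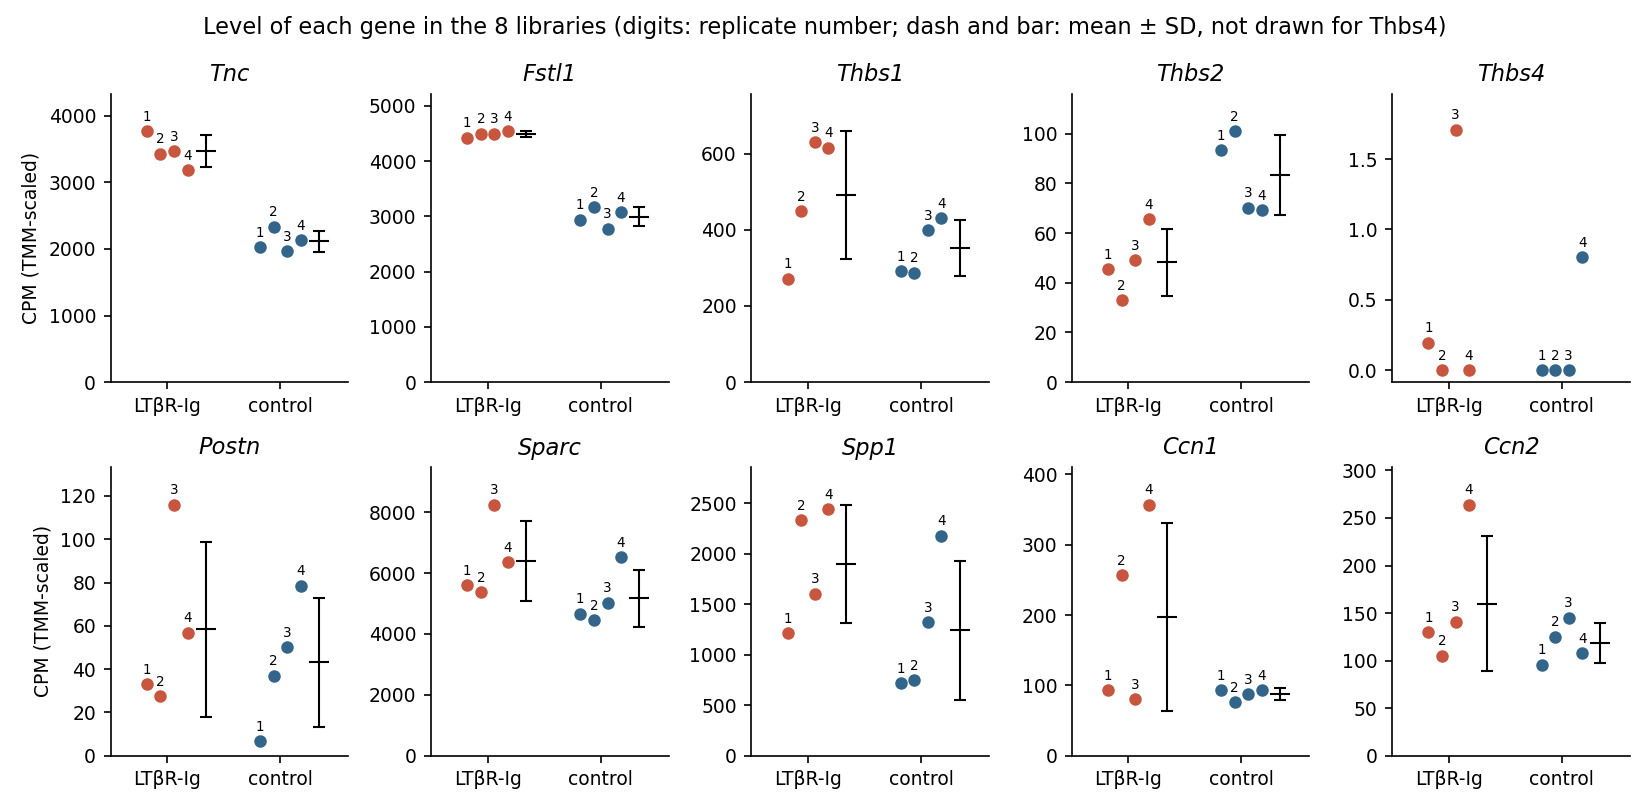
TMM-scaled CPM of each gene in LTβR-Ig (left) and control (right) libraries, with the replicate number at each point and the mean ± SD of 4 libraries beside it. The groups separate for Tnc, Fstl1 and Thbs2 and overlap for the other genes, and Ccn1 is high in LTβR-Ig replicates 2 and 4.

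Sparc, Spp1 and Postn are matrix proteins of bone and its coverings. Sparc (chromosome 11, 55394500 to 55423183) was at 5599, 5371, 8249 and 6358 CPM in LTβR-Ig replicates 1 to 4, against 4663, 4445, 5025 and 6528 CPM in control replicates 1 to 4. LTβR-Ig replicate 3 was highest, and control replicate 4 was above 3 of the 4 LTβR-Ig libraries. Its log2 fold change was 0.31 (SE 0.17, 95% interval -0.08 to 0.69).

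Spp1 (chromosome 5, 104435118 to 104441050) was at 1215, 2334, 1607 and 2442 CPM in LTβR-Ig replicates 1 to 4, against 717, 747, 1320 and 2181 CPM in control replicates 1 to 4. Control libraries alone spanned 3.04-fold, and the log2 fold change of 0.61 (SE 0.38, 95% interval -0.25 to 1.48) was within that spread. Leaving out 1 library moved it between 0.43, without control replicate 1, and 1.03, without control replicate 4. A same-strand locus, Gm42793, shares 309 exonic bases with Spp1 and had 148 and 3 counts in all LTβR-Ig and all control libraries, beside 415310 and 295659 counts of Spp1.

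Postn (chromosome 3, 54361109 to 54391037) encodes periostin, a protein of periosteum and other fibrous tissue that binds integrins. It was at 33.1, 27.5, 116 and 56.8 CPM in LTβR-Ig replicates 1 to 4, against 6.77, 36.9, 50.2 and 78.6 CPM in control replicates 1 to 4. Control libraries spanned 11.6-fold and the groups overlapped widely. The log2 fold change of 0.44 (SE 0.68, 95% interval -1.1 to 1.98) depended on single libraries: it was -0.14 without LTβR-Ig replicate 3, 0.08 without control replicate 1 and 0.9 without control replicate 4.

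Libraries that were high for Sparc and Postn were also high for markers of several other cell types, though not of all. A list of 8 osteoblast and osteocyte markers, with Bglap, Sp7 and Alpl among them, summed to 2558 to 9899 CPM in LTβR-Ig and 1307 to 6921 CPM in control libraries. In each group this list was highest in the library where Sparc, Postn and Thbs1 were highest, which was LTβR-Ig replicate 3 and control replicate 4. All 7 tested members had a positive log2 fold change (median 0.43), and Sost, which marks osteocytes, had 0 counts in all 8 libraries. A list of 12 megakaryocyte and platelet markers, cells that also store the protein of Thbs1, summed to 951 to 3872 CPM in LTβR-Ig and 606 to 2744 CPM in control libraries, with the same libraries highest and a positive log2 fold change in 12 of 12 members (median 0.64).

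Endothelial markers summed to 32.4 to 304 CPM in LTβR-Ig and 44.8 to 139 CPM in control libraries, again highest in LTβR-Ig replicate 3 and control replicate 4, with 11 of 11 members positive (median 0.68). Macrophage and monocyte markers were at 1130 to 2848 CPM in LTβR-Ig and 1005 to 2373 CPM in control libraries (median 0.18). Tendon and fibroblast markers were at 8.98 to 57.9 and 24.2 to 35.7 CPM (median 0.38, with Scx at 0 counts in all 8 libraries). Both lists were highest in LTβR-Ig replicate 3 and control replicate 3. So were erythroid markers, at 15756 to 36710 and 15690 to 48041 CPM, with 7 of 9 members negative (median -0.1). Neutrophil markers, highest in LTβR-Ig replicate 3 and control replicate 4, were at 4521 to 9013 and 3953 to 9349 CPM (9 of 9 negative, median -0.16). B and plasma cell markers were lowest in LTβR-Ig replicate 3 and control replicate 4. The part of these cells in the levels of Sparc, Spp1, Postn and Thbs1 was not tested. Without LTβR-Ig replicate 3 the log2 fold change was 0.17 for Sparc, 0.69 for Spp1, 0.34 for Thbs1, 0.72 for Tnc and 0.59 for Fstl1. Without control replicate 4 these values were 0.44, 1.03, 0.59, 0.72 and 0.6. Tnc was highest in LTβR-Ig replicate 1 and Fstl1 in LTβR-Ig replicate 4, and both were highest in replicate 2 among control libraries. Of the osteoblast markers, Alpl, the bone alkaline phosphatase gene, was split by group like Tnc and Fstl1. It was at 544, 470, 662 and 459 CPM in LTβR-Ig replicates 1 to 4, against 201, 249, 272 and 382 CPM in control replicates 1 to 4. Alpl was named after its values were seen, and the other tested osteoblast markers overlapped between the groups. Of all tested genes 4.89% had groups without overlap. The part of osteoblast lineage cells in the levels of Tnc and Fstl1 was not tested either.

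**Figure D3:**
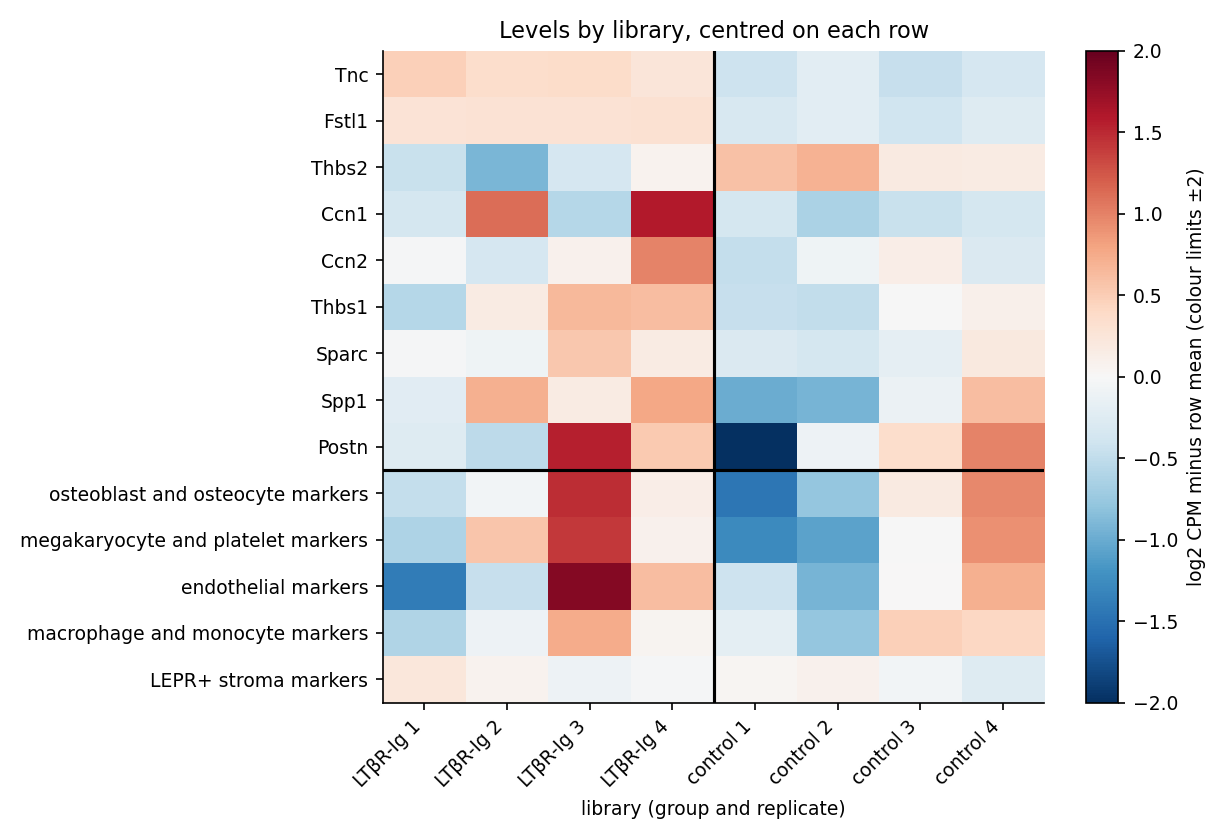
Log2 CPM of 9 of the genes and log2 of the summed CPM of 5 marker lists in the 8 libraries, each row centred on its mean (red, higher, and blue, lower). Tnc and Fstl1 split by group, whereas Postn follows the osteoblast, megakaryocyte and endothelial markers, which are highest in LTβR-Ig replicate 3.

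The CCN genes were uneven between LTβR-Ig libraries. Ccn1 (ENSMUSG00000028195.4, chromosome 3, 145646976 to 145649981), which encodes a heparin- and integrin-binding protein, was at 92.9, 257, 80.4 and 357 CPM in LTβR-Ig replicates 1 to 4, against 93.4, 76.4, 87.2 and 93.3 CPM in control replicates 1 to 4. LTβR-Ig replicates 2 and 4 were far above all control libraries, and replicates 1 and 3 were within the control range. The coefficient of variation was 67.9% in LTβR-Ig and 9.15% in control libraries. The log2 fold change of 1.17 (SE 0.45, 95% interval 0.16 to 2.18) was lower, at 0.71, without LTβR-Ig replicate 4, and was 1.01 without replicate 2.

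Ccn2 (chromosome 10, 24595442 to 24598683) was at 130, 105, 141 and 264 CPM in LTβR-Ig replicates 1 to 4, against 95.7, 125, 145 and 108 CPM in control replicates 1 to 4. Only LTβR-Ig replicate 4 was above the control range, and LTβR-Ig replicate 2, where Ccn1 was high, had the lowest Ccn2 of its group. The log2 fold change of 0.43 (SE 0.28, 95% interval -0.2 to 1.06) was 0.08 without LTβR-Ig replicate 4. Per length, the ratio of Ccn1 to Ccn2 ran from 0.806 to 3.49 in LTβR-Ig and from 0.851 to 1.38 in control libraries. The non-coding transcript Gm15270, on the opposite strand, shares 665 exonic bases with Ccn2 and had 276 and 529 counts in all LTβR-Ig and all control libraries, beside 35133 and 28683 counts of Ccn2. The strand setting of the counting is not given in the sources used here, so reads over these bases cannot be told apart. Whether reads over shared bases were left out of the counts of Ccn2, or of Tnc and Spp1, was not measured.

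Of the 10 genes 9 were tested. In edgeR's quasi-likelihood test 0 of 9 passed an adjusted p of 0.05, against 0.0374% of all 16045 genes, which were 6 genes that were all lower. An unadjusted p under 0.05 was met by 4 of the 9 (Tnc, Fstl1, Thbs2 and Ccn1), against 3.39% of all tested genes higher and 2.93% lower. The median log2 fold change of the 9 was 0.48, against 0 over all tested genes, with 8 above 0 and 1, Thbs2, below. The libraries of the groups did not overlap for 3 of the 9, Tnc and Fstl1 higher and Thbs2 lower, against 2.36% of all tested genes higher and 2.53% lower (4.89% in either direction). Since this comparison chose the genes, nothing is read from these counts.

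**Figure D4:**
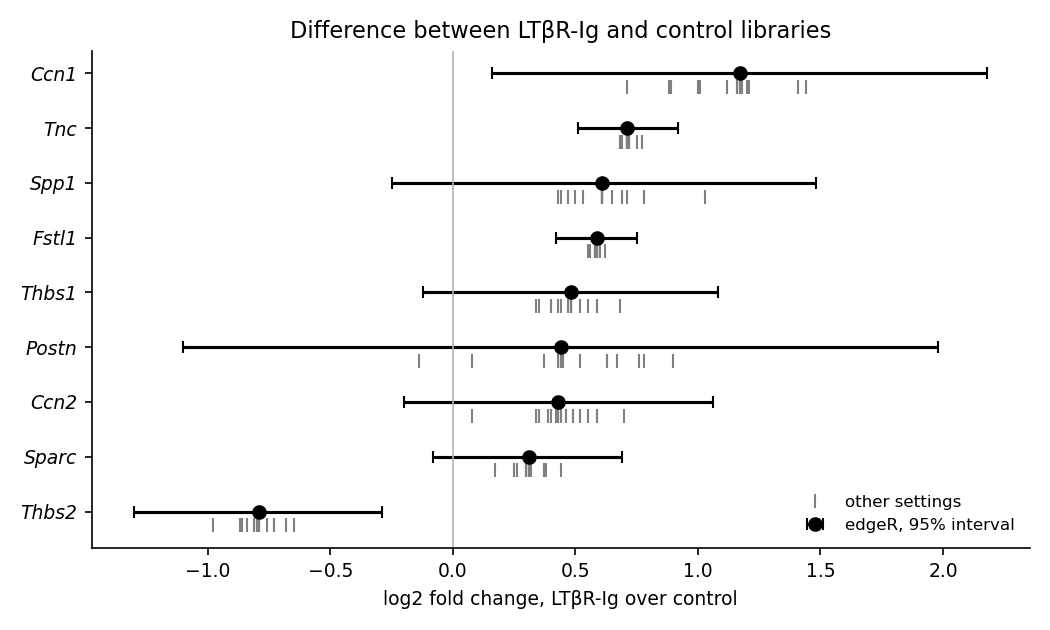
Log2 fold change of LTβR-Ig over control for the 9 tested genes, with the 95% interval from edgeR (point and bar) and the values under 17 other settings and left-out libraries (grey ticks). Tnc and Fstl1 have narrow intervals, Thbs2 alone lies below 0, and Postn crosses 0 among the settings.

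The genes whose pattern over the 8 libraries was most like that of each leading gene were found by the root mean square difference of centred log2 CPM, among 11412 other genes whose mean log2 CPM was 1 or more. Nearest to Tnc were Syncrip, an RNA-binding protein gene (difference 0.0882), Fkbp10, which encodes a collagen chaperone of the endoplasmic reticulum (0.116), and the adenylate kinase gene Ak1 (0.121), where the median over all candidates was 0.506. Nearest to Fstl1 were Cyp20a1, a cytochrome P450 gene (0.062), Ak1 again (0.066) and the tetraspanin gene Cd63 (0.0896), with a median of 0.459. Cd63 was at 1810 CPM in LTβR-Ig and 1240 CPM in control libraries on average, and Fkbp10 at 261 and 177 CPM. The match covered all 8 libraries, so a similar difference between the groups was part of how neighbours were chosen. Group means of these genes and of those below therefore add no support.

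Nearest to Thbs2 were the transporter gene Abcc1 (0.147), Cnot6l, which encodes a deadenylase (0.178), and Neurl1b, a ubiquitin ligase gene (0.194), with a median of 0.62. Ccn1 had no neighbour as close. The collagenase gene Mmp13 was nearest (0.293), followed by Flrt2, a membrane adhesion protein gene (0.313), and the laminin chain gene Lama5 (0.317), with a median of 0.87. Mmp13 averaged 1750 CPM in LTβR-Ig and 873 CPM in control libraries.

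The 6 lists of related genes that follow were also chosen with earlier results of these data known. Their counts are therefore a description, given beside the shares of all tested genes, and support nothing. EdgeR called 0% higher and 0.0374% lower. With DESeq2 1.25% passed, 0.552% higher and 0.697% lower. With limma-voom 0.0873% passed, 0.0125% higher and 0.0748% lower. EdgeR with a stricter filter (at least 10 counts in 4 libraries and a mean of 5 CPM) called 0.201% (0.0457% higher and 0.155% lower), and with the replicate number as a block 0.00623%, which was 1 gene that was lower. An unadjusted p under 0.05 in edgeR was met by 3.39% higher and 2.93% lower.

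Relatives of these proteins were in part too low to test. Of 24 relatives, 12 were tested, 0 passed in edgeR, and an unadjusted p under 0.05 was met by 3 higher and 0 lower genes. DESeq2 called 2 of them, Sparcl1 and Comp, both higher, and limma-voom called 0. The median log2 fold change was 0.6, against 0 over all tested genes, with 10 above 0 and 2 below, and the summed level of the list, most of it Ibsp, overlapped between the groups (6604 to 17142 CPM in LTβR-Ig and 10548 to 18050 CPM in control libraries). Sparcl1, the closest relative of Sparc, was at 8.23, 25, 12.1 and 28.6 CPM in LTβR-Ig replicates 1 to 4, against 6.18, 4.34, 1.46 and 6.18 CPM in control replicates 1 to 4 (log2 fold change 2.02, SE 0.55, edgeR adjusted p = 0.422). Comp, a thrombospondin of cartilage and tendon, averaged 60.4 ± 13.7 CPM in LTβR-Ig and 25.2 ± 11.5 CPM in control libraries (SD, n = 4 each; log2 fold change 1.26, edgeR adjusted p = 0.46). Their libraries did not overlap between the groups.

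The follistatin gene Fst, whose protein binds activins and is related to Fstl1 by its follistatin domain, had 0.55 (edgeR adjusted p = 0.671). By far the most abundant relative was Ibsp, the bone sialoprotein gene, which averaged 11400 CPM in LTβR-Ig and 11900 CPM in control libraries (log2 fold change -0.07); it was named after its values were seen. The CCN relatives Ccn3 and Ccn6 and the tenascin R gene Tnr had at most 2 counts over all 8 libraries.

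Receptors and binding partners were tested for 27 of 29 genes. In edgeR 0 passed, and an unadjusted p under 0.05 was met by 5 higher and 0 lower genes, against 3.39% and 2.93% of all tested genes. DESeq2 called 3, all higher (0.552% of all genes), limma-voom 0, and the stricter filter 1, which was higher (0.0457% of all genes). The list's median was 0.12, with 19 above 0 and 8 below. Lrp1, the endocytic receptor that clears thrombospondins, was at 695, 890, 692 and 860 CPM in LTβR-Ig replicates 1 to 4, against 339, 451, 429 and 451 CPM in control replicates 1 to 4, and its groups did not overlap (log2 fold change 0.91, SE 0.13, edgeR adjusted p = 0.0746). It passed with DESeq2 and with the stricter filter (adjusted p = 0.032).

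Itga9, which encodes the integrin α9 chain that binds tenascin C and osteopontin, was at 45.8, 59.1, 51.5 and 47.8 CPM in LTβR-Ig replicates 1 to 4, against 27, 26.7, 24.5 and 29.3 CPM in control replicates 1 to 4. Its groups stood well apart (log2 fold change 0.93, SE 0.14, edgeR adjusted p = 0.084). DESeq2 called it. Anxa2, a cell surface annexin that binds tenascin C, averaged 463 ± 24.6 CPM in LTβR-Ig and 327 ± 50.4 CPM in control libraries (SD, n = 4 each; log2 fold change 0.5, edgeR adjusted p = 0.285). The other 2 with an unadjusted p under 0.05, named after their values were seen, were Itgb1, the common integrin β chain (0.3), and the syndecan gene Sdc4 (0.57). The thrombospondin receptor genes Cd36 and Cd47 had 0.01 and -0.1, and the osteopontin receptor gene Cd44 had 0.12; these too were chosen after their values were seen.

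**Figure D5:**
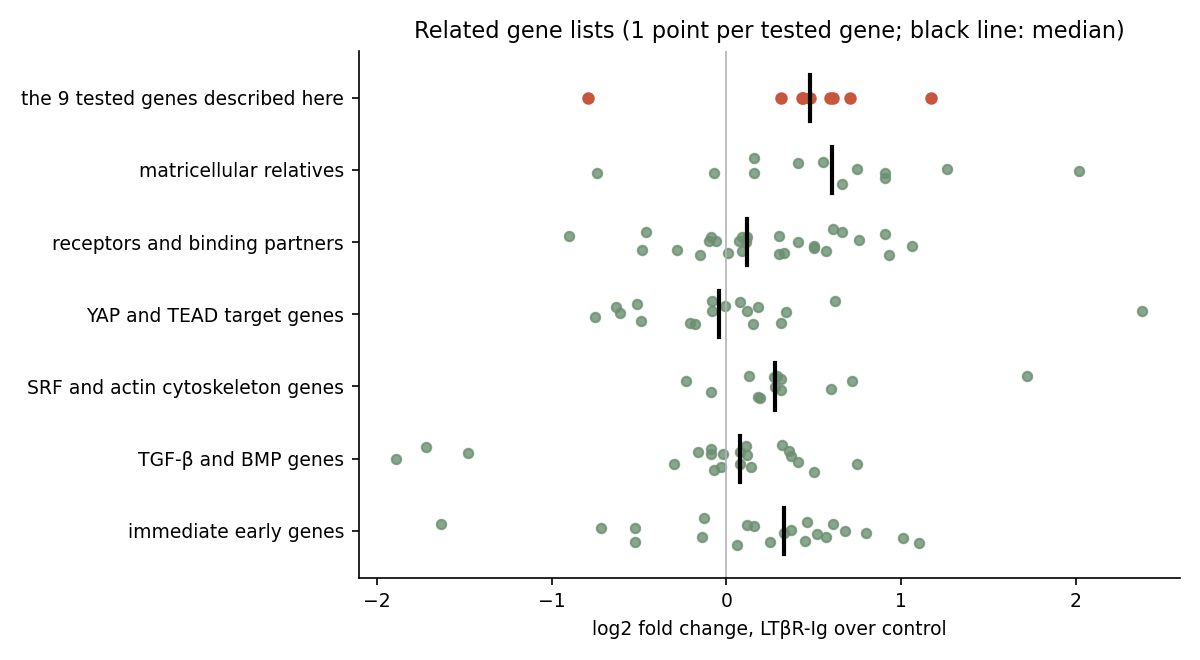
Log2 fold change of LTβR-Ig over control for the 9 tested genes described here (red) and for each tested gene of 6 related lists (green), with the median of each list as a black line. The medians are 0.48 for the 9 genes, 0.6 for matricellular relatives and between -0.04 and 0.33 for the other lists.

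Ccn1 and Ccn2 are standard targets of YAP with TEAD factors, so other targets were compared. Of 20, 18 were tested, 0 passed in edgeR, DESeq2 and limma-voom, and an unadjusted p under 0.05 was met in edgeR by 0 higher and 2 lower genes. The median was -0.04, with 8 above 0 and 10 below. Myof, a membrane repair protein gene, averaged 20.8 ± 3.25 CPM in LTβR-Ig and 29.3 ± 3.69 CPM in control libraries (SD, n = 4 each; log2 fold change -0.49, edgeR adjusted p = 0.649) with no overlap. The IGF-binding protein gene Igfbp3 had -0.61 (edgeR adjusted p = 0.782) and the stress gene Gadd45b -0.75 (edgeR adjusted p = 0.906). Ankrd1, a widely used YAP target, had 0 counts in all 8 libraries.

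SRF and actin cytoskeleton genes gave 0 calls among 13 of 14 tested in edgeR, DESeq2 and limma-voom, with an edgeR unadjusted p under 0.05 for 2 higher and 0 lower genes (median 0.28). The myosin light chain gene Myl9 averaged 295 ± 53.8 CPM in LTβR-Ig and 179 ± 56 CPM in control libraries (SD, n = 4 each; log2 fold change 0.72, edgeR adjusted p = 0.482), and the groups overlapped because control replicate 4 was at 262 CPM. Cald1 had 0.27 and the tropomyosin gene Tpm2 0.6 (edgeR adjusted p = 0.698 and 0.937).

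TGF-β and BMP ligands, receptors and feedback targets were tested for 21 of 21 genes. None passed in edgeR, DESeq2 or limma-voom, and an unadjusted p under 0.05 was met in edgeR by 1 higher and 0 lower genes (median 0.08). The gene was Tgfbr3, which encodes the co-receptor betaglycan, at 828 ± 100 CPM in LTβR-Ig and 663 ± 57.2 CPM in control libraries (SD, n = 4 each; log2 fold change 0.32, edgeR adjusted p = 0.625), with no overlap. Smad6, an inhibitory SMAD gene, had 0.75 and the latent TGF-β binding protein gene Ltbp2 -0.3 (edgeR adjusted p = 0.874 and 0.927). Bmp4, whose protein is bound by that of Fstl1, averaged 203 CPM in LTβR-Ig and 188 CPM in control libraries (log2 fold change 0.11); it was named after its values were seen.

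Immediate early genes, which respond to cell handling and are often induced together with Ccn1, gave 0 calls among 21 of 22 tested in edgeR, DESeq2 and limma-voom, with an edgeR unadjusted p under 0.05 for 2 higher and 0 lower genes (median 0.33). The nuclear receptor gene Nr4a1 averaged 27.2 ± 10 CPM in LTβR-Ig and 12.7 ± 3.04 CPM in control libraries (SD, n = 4 each; log2 fold change 1.1, edgeR adjusted p = 0.433). Klf2 averaged 21.4 ± 3.83 and 10.6 ± 3.64 CPM (log2 fold change 1.01, edgeR adjusted p = 0.454), and neither overlapped between the groups. Jund had 0.46 (edgeR adjusted p = 0.962). Summed over the list, the level was 1028, 1153, 1571 and 1957 CPM in LTβR-Ig replicates 1 to 4, against 1153, 1043, 1348 and 1133 CPM in control replicates 1 to 4. Replicate 4, the highest of the LTβR-Ig libraries, was also the highest for Ccn1, but replicate 3 was second highest and had the lowest Ccn1. Nr4a1 was at 19.1, 33.2, 18.5 and 38.3 CPM in LTβR-Ig replicates 1 to 4, so that it was higher in the same 2 libraries as Ccn1. It was compared in this way after its values were seen, and the list was mixed. Egr1 had the same 2 libraries highest, at 20.9, 39.8, 25.4 and 82.5 CPM. Fos, at 89.2, 159, 316 and 395 CPM, and Jun, at 7.45, 12.1, 25.1 and 26.8 CPM, were instead highest in replicates 3 and 4. The part of cell handling in the level of Ccn1 was not tested.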

How the data were processed

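The authors deposited raw counts per gene, whole numbers with no normalization, for 52636 genes in 8 libraries of polyA RNA read as pairs of 76 bp. HISAT2, HTSeq and the mm10 build were used, per the submitters' processing notes; their versions, the annotation release and the strandedness used in counting were not given in the sources used here. Cells were sorted for LEPR after removal of CD45, Ter119, CD31 and CD144 positive cells, per the labels' protocols. Groups and replicate numbers came from the sample titles.

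Symbols were matched to 52403 gene IDs without version through GENCODE M21 (GRCm38, the assembly of mm10), which also gave spans and exon lengths. IDs without a symbol took 0.0207 to 0.148% of counts. EdgeR 4.0.16 in R 4.3.3 was run on all genes: TMM scaling, filterByExpr (minimum count 10, minimum total 15), robust quasi-likelihood F test, no covariate, Benjamini-Hochberg adjustment over 16045 genes, threshold 0.05. The standard error is the log2 fold change over the square root of F. The tests were checked on simulated counts. Alternatives were DESeq2 1.42.0, limma-voom (limma 3.58.1), other scalings and filters, a block for the replicate number, and each library left out in turn. DESeq2 with no filter, and leaving out LTβR-Ig replicate 2 with control replicate 3 (the extremes of principal component 1), were chosen after seeing the data.

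The 10 genes and all gene lists were chosen with earlier results of these data known. Genes named from the lists are the 3 with the smallest edgeR p in each (every gene past the threshold, had there been any), and 3 nearest genes are named for Tnc, Fstl1, Thbs2 and Ccn1; predicted loci were not considered as nearest genes. Replicates of a group differed by more than counting error, so none was counted as a repeat. Intervals and limits on 0 counts cover counting error or the spread between these libraries only.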

Additional observations from a re-analysis of the deposited data

Results flagged for a closer look

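Of 104 groups of 4 values looked at (named genes and marker list shares), 5 held a library far from the other 3, which chance gives for about 1 in 20 groups. In LTβR-Ig replicate 3, Thbs4 reached 1.71 CPM, and the other LTβR-Ig libraries had 0 to 0.194 CPM of it. In control replicate 4, Thbs4 reached 0.802 CPM, with 0 in the other controls. Igfbp3 had 146 CPM in the same control library and 97 to 99.6 CPM in the other controls. For Myl9 these values were 262 CPM and 147 to 158 CPM. The share of Schwann cell markers was 0.0214% there and 0.0144 to 0.0154% in the other controls. Of these 5 values, 4 are thus from control replicate 4 and 1 from LTβR-Ig replicate 3.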

How the results depend on the processing

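Over all genes the 6 calls became 199 with DESeq2, 338 with DESeq2 and no filter, 14 with limma-voom, 22 with the stricter filter (10952 genes tested) and 1 with the replicate number as a block. Leaving out 1 library gave 2 to 9 calls, with 2 without control replicate 3, and leaving out both control replicate 3 and LTβR-Ig replicate 2 gave 1; fewer libraries were tested there, and for the other settings the cause was not tested. Of matricellular relatives 0 were called, but 2 with DESeq2 under either filter. Of receptors and binding partners 0 were called, but 3 with DESeq2, 4 with DESeq2 and no filter, and 1 with the stricter filter. Of immediate early genes 0 were called, but 2 (Nr4a1 and Klf2) with DESeq2 and no filter. Leaving out 1 library gave 0 to 0 calls in each of the 6 lists. For Tnc and Fstl1 passing or missing the threshold repeats the comparison that chose them and supports nothing; they passed in 6 of 17 settings each (DESeq2 size factors in edgeR, DESeq2 under either filter, limma-voom, no filter and the stricter filter) and in no setting that left out a library; with the replicate block their log2 fold changes were 0.71 and 0.59 and neither passed (edgeR adjusted p = 0.282 and 0.276). Of the other 7 genes none passed in any of 17 settings, and Postn changed sign, to -0.14, without LTβR-Ig replicate 3 (leaving out 1 library gave -0.14 to 0.9). Same-numbered libraries deviated together weakly if at all (correlations over genes of 0.0749, 0.0297, 0.0453 and 0.000129), and differently numbered libraries had correlations of -0.0875 to 0.0786. The numbers were not taken as pairs, although values this small do not exclude pairing. The submitters' design text does speak of 4 pairs, and whether a pair shares a number is not given, so the fit with the block may be nearer to the design; LTβR-Ig replicate 1 correlated slightly better with control replicate 2 (0.0786). The median of all genes moved by less than 0.1 between scalings. Depth limits only Thbs4 among the 10 genes.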

Other observations

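Some relatives with too few counts to be tested were seen mainly in LTβR-Ig libraries; they were picked after their values were seen, and no test was made. Tnn, which encodes tenascin W, a tenascin of bone-forming and periosteal tissue, had 35, 0, 85 and 23 counts in LTβR-Ig replicates 1 to 4 and 0 in each of the 4 control libraries. Spock2, a proteoglycan gene of the SPARC family, had 32, 12, 43 and 0 counts in LTβR-Ig replicates 1 to 4, against 0, 1, 0 and 0 in control replicates 1 to 4. LTβR-Ig replicate 3 was highest for both. Within its group that library was also highest for osteoblast, megakaryocyte, endothelial, macrophage, tendon, chondrocyte, erythroid and neutrophil markers. Fstl4 had 95 counts in LTβR-Ig replicate 3, 11 in control replicate 4 and 0 in the other 6 libraries. Itgb8, an integrin chain gene, showed the reverse, with 0 counts in each LTβR-Ig library, against 93, 136, 0 and 0 in control replicates 1 to 4. So did Tnxb, a tenascin gene among the relatives, with 0 counts in each LTβR-Ig library, against 0, 16, 15 and 0 in control replicates 1 to 4.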
